A study of Mus musculus with 18 samples.

Results

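The 10 genes described here encode receptors and effector molecules of cytotoxic lymphocytes, and they were followed in the lymphocytes of mouse skin during the first days of stretch. They are the receptor chains Klrd1, Klrk1 and Klrc1, the granule genes Nkg7, Gzma, Gzmb, Gzmc and Prf1, the chemokine Xcl1 and the cytokine Ifng, and all 10 symbols were present among the 32285 genes of each matrix. The members were chosen by symbol, with no threshold, and with their levels in these lymphocytes known, so levels by lymphocyte subset are given as a description without a test. All mice, controls included, were operated on: the back skin was cut near the tail and a subcutaneous path was opened up to the neck. The expanded arm had a hydrogel expander left in that path and held by stitches, while the control arm had the surgery alone. Skin was taken 1, 2 or 4 days later, living (DAPI-negative) cells of all types were sorted from it, and 3′ mRNA libraries were made on the 10x Genomics platform from tubes in which the mice of 1 arm and sequencing round were pooled. The labels used here gave no strain, age or genotype, and no transgene or treatment other than the surgery and the expander. Each arm had 5 libraries, with rounds 1 and 2 on days 1 and 2 and round 1 on day 4, and 4 libraries of each arm were hashed, which told apart 14 mice per arm.

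Cytotoxic lymphocytes kill through granules that hold perforin and granzymes: perforin, encoded by Prf1, opens the target membrane, and granzymes are serine proteases that enter through it. Natural killer (NK) cells and many gamma delta T cells also read the health of their neighbours through lectin-like receptors. NKG2D, encoded by Klrk1, recognises ligands that stressed cells display, and CD94, encoded by Klrd1, pairs with NKG2 chains such as that of Klrc1 to read a non-classical class I molecule. Mouse epidermis holds a resident population of gamma delta T cells, the dendritic epidermal T cells (DETC), known for surveying keratinocytes and for responding to wounds.

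The members lie at a few places in the mm10 genome, by the GENCODE vM21 annotation. Klrd1 (chr6:129591782-129598775, plus strand), Klrk1 (chr6:129610323-129623864, minus strand) and Klrc1 (chr6:129666015-129678973, minus strand) sit within 87.2 kb of chromosome 6. Gzmb (chr14:56258838-56262260) and Gzmc (chr14:56231441-56234656) are neighbours on the minus strand of chromosome 14, 24.2 kb apart. The others are Nkg7 (chr7:43437073-43438249, plus), Gzma (chr13:113093825-113100981, minus), Prf1 (chr10:61297833-61304680, plus), Ifng (chr10:118441046-118445892, plus) and Xcl1 (chr1:164931644-164935527, minus). Of the 50-base stretches in the last 500 bases of Klrc1 transcripts, 39.5% also occur in Klrc2 and 4.92% in Klrc3, so the Klrc1 counts are uncertain where reads fell in the shared part.

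RefSeq promoters on GRCm38.p6, 250 bases before to 50 after the start, matched 9 of the 10 members; Klrd1 had no entry in the table. Gzmb and Gzmc are shown because the results turn on these neighbouring genes, which had different main subsets. With expansion Gzmb was called higher in DETC-like cells, and Gzmc was called lower in NK-like cells. The calls were thus in different cells, and that of Gzmc did not hold in every alternative given below. Gzmc in DETC-like cells (1.24 on the log2 scale) and Gzmb in NK-like cells (0.20) were not called. The letters searched, on both strands, were the RUNX core TGTGGT, found in 16.8% of 32851 promoters of this length, the AP-1 site TGANTCA, found in 7.81%, and the T-box motif AGGTGTGA, found in 1.28%. Capitals mark the matches, and positions are counted from the RefSeq start, the base before it being -1. Both sequences are 5′ to 3′ on the minus strand, at chr14:56262285-56262584 for Gzmb, a window that lies wholly upstream of the GENCODE gene, and at chr14:56234608-56234907 for Gzmc.
Gzmb: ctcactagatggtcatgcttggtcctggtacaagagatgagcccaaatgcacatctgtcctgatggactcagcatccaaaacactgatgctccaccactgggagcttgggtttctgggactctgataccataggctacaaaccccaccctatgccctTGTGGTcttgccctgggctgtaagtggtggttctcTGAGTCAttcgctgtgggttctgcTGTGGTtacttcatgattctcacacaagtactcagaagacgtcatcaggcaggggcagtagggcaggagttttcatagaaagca
Gzmc: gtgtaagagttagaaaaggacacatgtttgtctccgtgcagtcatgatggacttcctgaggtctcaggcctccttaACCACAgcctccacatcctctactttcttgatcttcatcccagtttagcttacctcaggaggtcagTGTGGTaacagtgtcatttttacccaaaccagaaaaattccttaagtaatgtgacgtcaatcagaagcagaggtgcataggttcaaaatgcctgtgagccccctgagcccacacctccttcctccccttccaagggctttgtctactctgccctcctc
The Gzmb window held the RUNX core at -93 and -34 and an AP-1 match at -58. The Gzmc window held the RUNX core at -174, on the reverse strand, and at -108, and no AP-1 match. Among the other 7 windows, those of Gzma, Klrc1, Klrk1, Nkg7, Prf1 and Xcl1 held 1 RUNX core each and that of Ifng none. Klrk1 also held an AP-1 match at +18, and Nkg7 the T-box motif at -14. No matches overlapped except that the AP-1 letters read the same on both strands, and these are matches of letters only.

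Lymphocytes numbered 3909 of the 45488 cells kept, from 170 to 1037 per library, with 787942 to 4790275 lymphocyte UMIs (unique molecular identifiers, which count captured mRNA molecules) per library. Whole libraries held 17726739 to 75470722 gene UMIs, and at most 0.377% of the barcodes of a library recurred in another. Median depth was 3743 UMIs per control lymphocyte and 4752.5 per expanded lymphocyte. Lymphocytes were clustered without the 10 members and named by markers. They gave 1027 DETC-like cells, 616 cells like NK or group 1 innate lymphoid cells (NK/ILC1-like), 581 regulatory T (Treg)-like, 506 group 2 innate lymphoid (ILC2)-like, 468 IL-17-type gamma delta T-like and 251 alpha beta T-like cells. The NK/ILC1-like cells were a main cluster of 554 cells and a cluster of 62 cells whose leading genes were the member Gzma, Ccl5 and Eomes, a transcription factor of NK cells; it is called Eomes-led here. A cluster of 245 cells led by Cd8a stayed unnamed because 86.1% of it came from the expanded library of day 1 round 2. Of the 240 unnamed lymphocytes of that library, 211 were in this cluster, and 1 mouse held 233 of the 240. The cluster thus came mostly from 1 mouse. Also unnamed were 106 cycling cells and 109 cells with fibroblast or myeloid genes. Of the defining markers, Cd3e was detected in 98.1% to 100% of cells in the DETC-like clusters, in 17.1% of the main NK/ILC1-like cluster and in 3.23% of the Eomes-led one. The T cell receptor gene Trdc was found in 26.5% and 38.7% of those NK/ILC1-like clusters, and 4 of 11 NK/ILC1 markers were at least 2-fold above the other lymphocytes in the main one and 10 in the other. Ncr1, an NK receptor, was found in 29.2% and 46.8% of their cells and in 0% to 0.171% of the DETC-like ones.

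Of the receptor chains, Klrd1 was highest in DETC-like cells, at 507 ± 187.5 CPM (UMIs of the gene per 1000000 UMIs; mean ± SD, n = 10 libraries), followed by NK/ILC1-like cells at 301 ± 103.8 (n = 10). The ranges of these subsets overlapped, and both lay above every alpha beta T-like library (33.1 ± 16.1, n = 5). Treg-like cells were lowest, at 1.06 ± 1.95 (n = 8). Klrk1 had a flatter order: 1053 ± 267.7 in NK/ILC1-like, 933 ± 278.5 in IL-17-type (n = 8), 626 ± 103.4 in DETC-like, 547 ± 158.5 in alpha beta T-like and 503 ± 207.7 in ILC2-like cells (n = 8), each overlapping the next. Treg-like cells stood apart from all of these, with Klrk1 at 8.23 ± 17.6. In the Cd8a-led cluster, mostly from 1 mouse, Klrk1 reached 1767 CPM over the pooled cells. Klrc1 was led by NK/ILC1-like cells at 149 ± 46.7, above DETC-like cells at 21.5 ± 12.7 in every library; alpha beta T-like cells, at 61.0 ± 47.8, overlapped both.

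Among the granule genes, Nkg7, a membrane protein of cytotoxic granules, and Prf1 had, as Klrd1 did, DETC-like cells first and NK/ILC1-like cells next; the order of the lower subsets differed between these genes. Nkg7 was 1786 ± 445.4 CPM in DETC-like and 1091 ± 186.5 in NK/ILC1-like cells, which did not overlap the next subset, alpha beta T-like at 223 ± 95.1. Prf1 was 438 ± 133.9 in DETC-like and 224 ± 70.4 in NK/ILC1-like cells, and the highest library of any other subset reached 22.7. DETC-like cells held 66.0% of the lymphocyte UMIs of Prf1, 53.1% of those of Nkg7 and 54.5% of those of Klrd1.

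The 3 granzymes each had a different main site. Gzmc was 18260 ± 6423 CPM in NK/ILC1-like cells and 270 ± 298.6 in DETC-like cells, with no overlap, and at most 118 in the mean of the other subsets. The main NK/ILC1-like cluster held 82.7% of its UMIs, with a UMI in 82.3% of cells and 150 UMIs per such cell. A further 14.2% lay in the cycling cluster, at 9010 CPM. Gzma lay mainly in the small Eomes-led cluster, which was 62 of 3909 cells and held 83.0% of the Gzma UMIs, at 2801 CPM and in 66.1% of its cells. That cluster had 40.1 CPM of Gzmc, and the main NK/ILC1-like cluster 3.16 CPM of Gzma. Within NK/ILC1-like cells, 47 had Gzma, 464 had Gzmc and 10 had both. Gzmb was highest in Treg-like cells at 876 ± 274.4, with a UMI in 45.4% of cells. Its lowest library, at 480.8, was above the highest of the other subsets apart from 1 DETC-like library at 491.1. The next 4 subsets, from IL-17-type at 118 ± 77.4 to alpha beta T-like at 105 ± 76.9, overlapped one another, and DETC-like Gzmb had an SD above its mean (114.5 ± 153.9). These means join both arms: DETC-like Gzmb was 16.2 ± 13.0 in control and 213 ± 170.1 CPM in expanded libraries, while NK/ILC1-like Gzmb was 95.7 ± 59.9 and 139 ± 98.6, so the place of DETC-like cells in this order was not the same in the arms.

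Of the secreted factors, Xcl1, a chemokine that attracts cross-presenting dendritic cells, was 3864 ± 953.4 CPM in NK/ILC1-like and 1107 ± 435.8 in DETC-like cells, and neither range overlapped the next. Ifng, the main cytokine of type 1 responses, was 168 ± 208.2 in NK/ILC1-like and 69.6 ± 67.9 in alpha beta T-like cells, with overlapping ranges. IL-17-type cells had 0 Ifng UMIs in 468 cells, with an exact 95% Poisson interval of up to 1.54 CPM. The Cd8a-led cluster, mostly from 1 mouse, gave 19.6% of all Ifng UMIs, at 204 CPM.

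**Figure D1:**
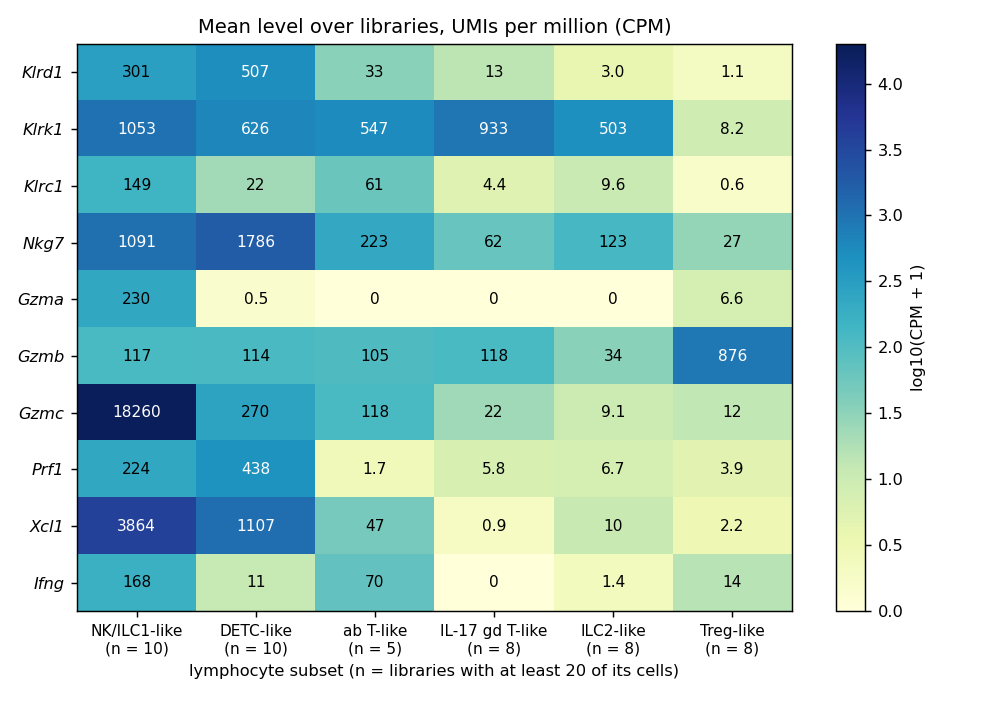
Heat map of the mean level of each member (rows) in 6 lymphocyte subsets (columns), coloured by log10(CPM + 1) and printed in CPM, over the libraries of both arms with at least 20 cells of the subset. Gzmc reached 18260 CPM in NK/ILC1-like cells, Gzmb was highest in Treg-like cells at 876 CPM, and Prf1 and Nkg7 were highest in DETC-like cells.

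The subsets differed in how many members a cell showed. In NK/ILC1-like cells 26.6% had UMIs of 6 members and 24.8% of 5; in DETC-like cells 36.0% had 4 and 23.3% had 5. IL-17-type cells most often had 1 member (62.8%), and Treg-like cells had 0 (48.4%) or 1 (43.6%). These counts rise with depth, and the median depth was 5772 UMIs in NK/ILC1-like, 4189 in DETC-like and 2868 in Treg-like cells.

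Members were also found in a small share of cells outside the lymphocytes, and the source of those UMIs was not tested. With cells thinned to 2000 UMIs, Gzmc was found in 0.561% of 4813 keratinocytes (exact 95% interval 0.370% to 0.815%) against 16.3% of 3599 lymphocytes, Xcl1 in 0.332% against 30.7%, and Klrd1 in 0.145% against 27.9%. Median depth before thinning was 11792 UMIs in these keratinocytes and 4297 in the lymphocytes. Intervals cover counting error only.

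**Figure D2:**
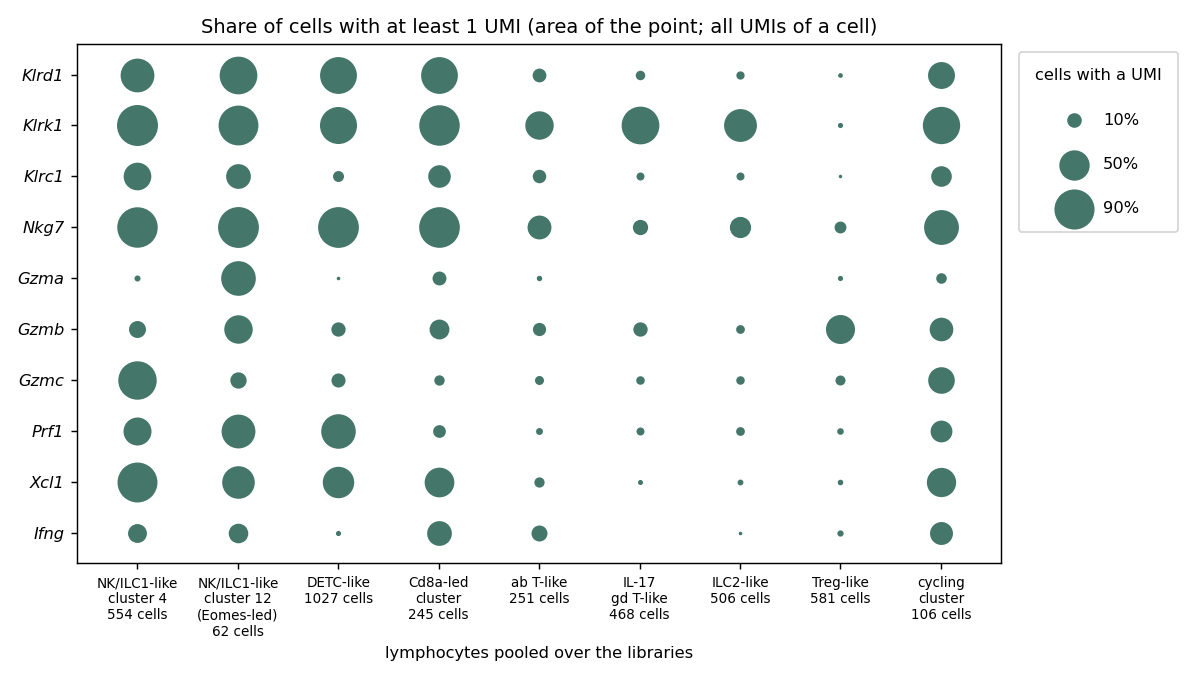
Share of cells with at least 1 UMI of each member (rows) in each lymphocyte subset or cluster (columns), pooled over libraries and without thinning, shown by the area of the point. The NK/ILC1-like clusters are drawn as separate columns. Over them together Klrk1 was present in 93.5% of cells, against 0.689% of Treg-like cells, and Gzma was present in 66.1% of the Eomes-led cluster.

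Over all lymphocytes, expansion went with more Klrd1 and less Gzmc. UMIs were summed per library, and edgeR's quasi-likelihood test was fitted with a term for day and Benjamini-Hochberg adjustment over all genes tested. Libraries pool mice, and p-values of fits over libraries measure the spread between libraries. Those of fits over mice measure the spread between mice. Mice of 1 arm and round shared a tube, so they are not independent of effects of that tube. Values per library are given in the order day 1 round 1, day 1 round 2, day 2 round 1, day 2 round 2 and day 4. At an adjusted p under 0.05, 0.588% of the 9864 genes tested were called, and 2 of the 10 members were.

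Klrd1 in control libraries was 134.8, 146.4, 119.3, 137.1 and 150.0 CPM, and in expanded libraries 302.1, 285.6, 261.5, 342.5 and 346.6. Every expanded library lay above every control library; the same held for 2.45% of the genes tested. The fitted log2 difference was 1.04 ± 0.11 (SE; adjusted p = 0.00371, edgeR), higher in 5 of 5 pairs of 1 day and round. Among the 14 hashed mice per arm, 12 of the 14 expanded mice exceeded the median control mouse, with a log2 difference of 1.10 ± 0.17 (adjusted p = 0.000189, edgeR; 5.24% of genes called). In every day and round with hashed mice, the mean over expanded mice was higher than over control mice: 261 against 145 on day 1, 229 against 111 and 362.5 against 140 on day 2, and 354 against 149 on day 4.

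Gzmc in control libraries was 5457, 5698, 4777, 7829 and 8008 CPM, and in expanded libraries 2963, 1672, 4066, 2834 and 2252. Each expanded library lay below each control library, as did 0.578% of the genes tested. The log2 difference was -1.33 ± 0.20 (SE; adjusted p = 0.0144, edgeR), lower in 5 of 5 pairs. It was lost, with a like size, without the control library of day 4 (-1.19, adjusted p = 0.0661), the expanded library of day 2 round 2 (-1.30, adjusted p = 0.057) or that of day 4 (-1.19, adjusted p = 0.0688), and with cells of at most 5% mitochondrial UMIs (adjusted p = 0.0703) or without cells over 2 times the median UMIs of their library (adjusted p = 0.136, edgeR). Of the 14 hashed expanded mice, 1 lay above the control median. Outside lymphocytes Gzmc stood at 79.1 CPM or less in every library of the 9 other classes tested. It was also lower with expansion in endothelial cells, at most 11.4 CPM in a library, from 6.18 ± 4.42 to 0.924 ± 0.697 CPM (-2.68, adjusted p = 0.00964, edgeR). Gzmc was called lower in fibroblast-like (-2.49, adjusted p = 0.0306) and keratinocyte-like cells (-2.20, adjusted p = 0.036, edgeR) as well. Without 1 library, the endothelial call was lost in 0 of 10 fits, the fibroblast-like in 6 and the keratinocyte-like in 7. Of all genes, 12.6%, 34.6% and 10.5% were called in these classes.

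The other 8 members did not pass over all lymphocytes. Klrc1 was 60.03 ± 13.4 CPM in control and 42.1 ± 5.06 in expanded libraries (SD, n = 5 each), lower in 5 of 5 pairs with overlapping ranges (log2 difference -0.62 ± 0.15, adjusted p = 0.104, edgeR). Xcl1 was 1499 ± 296.5 and 1016 ± 450.0 (adjusted p = 0.261), and Gzma 22.9 ± 26.3 and 67.7 ± 88.0 (adjusted p = 0.476, edgeR). Gzmb was 91.0, 122.5, 190.4, 188.9 and 195.3 in control libraries and 38.4, 173.9, 341.6, 321.1 and 379.9 in expanded ones. Gzmb was thus higher in 4 pairs and lower in that of day 1 round 1 (0.41 ± 0.32, adjusted p = 0.632, edgeR); without the expanded library of that pair the difference passed, at 0.70 (adjusted p = 0.0307, edgeR). Klrk1 (660.5 ± 106.9 and 638 ± 133.1), Nkg7 (808 ± 171.2 and 787 ± 216.3), Prf1 (161 ± 35.5 and 175 ± 91.9) and Ifng (46.6 ± 26.5 and 46.9 ± 20.8) had close means, with adjusted p from 0.705 to 0.915 (edgeR).

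A sum over all lymphocytes also moves with its makeup. DETC-like cells were 24.3% ± 8.48 of the lymphocytes in control and 34.8% ± 11.1 in expanded libraries (SD, n = 5 each; exact two-sided permutation test, p = 0.135, adjusted over 6 subsets 0.619). NK/ILC1-like cells were 19.8% ± 3.74 and 15.1% ± 8.88 (exact permutation p = 0.31, adjusted 0.619). As a share of all cells kept, they were 1.62% ± 0.77 and 3.43% ± 1.41 for DETC-like cells (exact permutation p = 0.0238, adjusted 0.143) and 1.37% ± 0.59 and 1.36% ± 0.51 for NK/ILC1-like cells. The 7 fibroblast markers summed to 1000 to 2549 CPM in control and 59.1 to 841 in expanded lymphocytes, with 2 of them at 0 in 1 expanded library and each detected in the others. The part of these shifts in the differences of Klrd1 and Gzmc was not tested. Within subsets the members were therefore compared again.

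**Figure D3:**
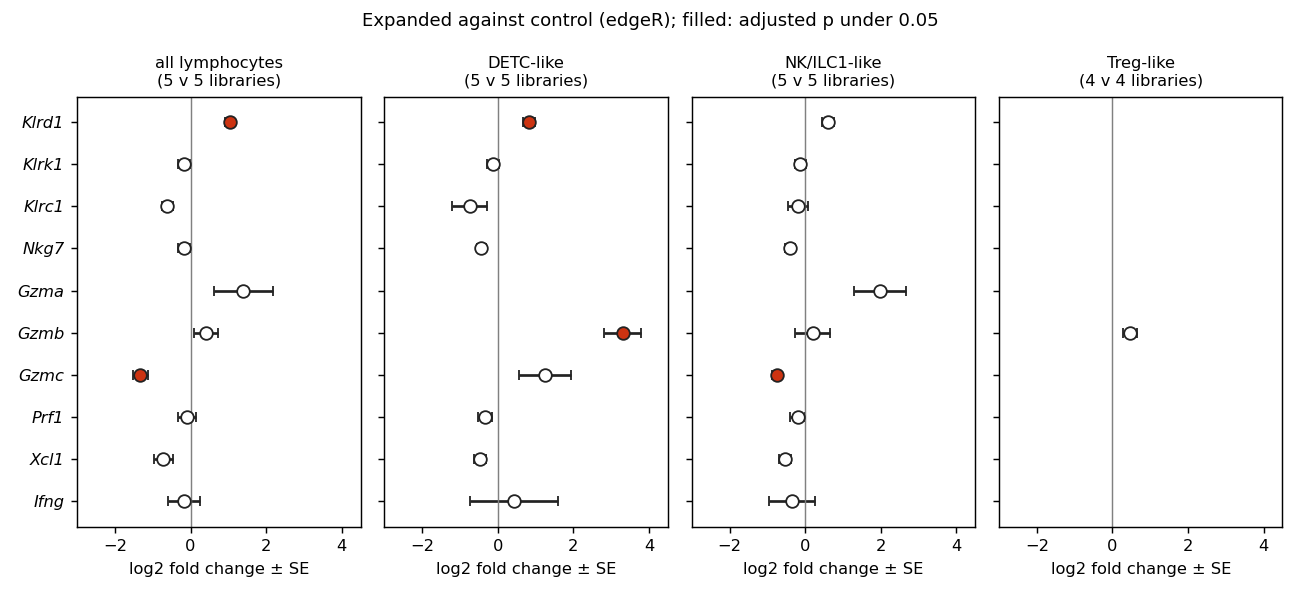
Log2 difference of each member, expanded minus control, with its standard error, in all lymphocytes and in the DETC-like, NK/ILC1-like and Treg-like subsets, filled where the adjusted p is under 0.05 and left out where a member was under the filter. Klrd1 lies at 1.04 in all lymphocytes, and Gzmb at 3.31 in DETC-like cells against 0.20 in NK/ILC1-like cells.

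In DETC-like cells, Gzmb and Klrd1 were higher with expansion. Here 0.856% of 6188 genes were called, and 2 of the 9 members that passed the filter on low counts; Gzma was under the filter. The test counts libraries with at least 20 cells of the subset, and 27 to 205 DETC-like cells were in each.

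Gzmb in DETC-like cells was 13.9, 23.5, 0, 9.48 and 33.8 CPM in control libraries and 66.8, 121.7, 491.1, 254.9 and 129.7 in expanded ones. All 5 expanded libraries lay above all 5 control libraries, the highest on day 2, as did 1.87% of the genes tested. The log2 difference was 3.31 ± 0.49 (SE; adjusted p = 0.00363, edgeR). With cells thinned to 2000 UMIs, the share of DETC-like cells with a Gzmb UMI was 0% to 3.64% in control and 5.26% to 17.1% in expanded libraries. The share of all genes with such a gap in thinned cells is not given.

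The mice showed this Gzmb difference unevenly. Among those with at least 10 DETC-like cells, 5 of 12 control mice and 1 of 12 expanded mice were at 0, the control median was 7.06 CPM and the highest control mouse was at 124; the expanded median was 160 and 10 of 12 expanded mice exceeded the control median (log2 difference 3.27 ± 0.64, adjusted p = 0.0024, edgeR; 2.82% of genes called). On day 2 round 2, 1 expanded mouse was at 566 CPM from 145 UMIs, and the other two with enough cells were at 4.87 and 0. On day 2 round 1, both control mice were at 0 and both expanded mice at 248 and 660. On day 4 the 4 expanded mice lay between 63.1 and 240 and the 3 control mice between 9.21 and 100.3, with overlap. With at least 20 cells per mouse, 7 control and 6 expanded mice entered the fit, since 2 expanded mice of day 2 round 1 had no control mouse with as many cells beside them. The difference was 3.40 and did not pass (adjusted p = 0.0741, edgeR; 0.715% of genes called).

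Klrd1 in DETC-like cells was 261.4, 359.2, 428.7, 317.5 and 380.2 CPM in control libraries and 566.2, 625.7, 620.5, 645.9 and 862.6 in expanded ones. The arms did not overlap, as held in this direction for 1.87% of the genes tested, and the expanded library of day 4 was the highest. The log2 difference was 0.83 ± 0.16 (SE; adjusted p = 0.0188, edgeR), higher in 5 of 5 pairs. It did not pass without the control library of day 1 round 1 (adjusted p = 0.0538), day 2 round 2 (0.0601) or day 4 (0.096), or without the expanded library of day 4 (0.0989, edgeR). Over mice with at least 10 cells it was 0.90 ± 0.15 (adjusted p = 0.000334, edgeR), and all 12 expanded mice exceeded the control median.

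**Figure D4:**
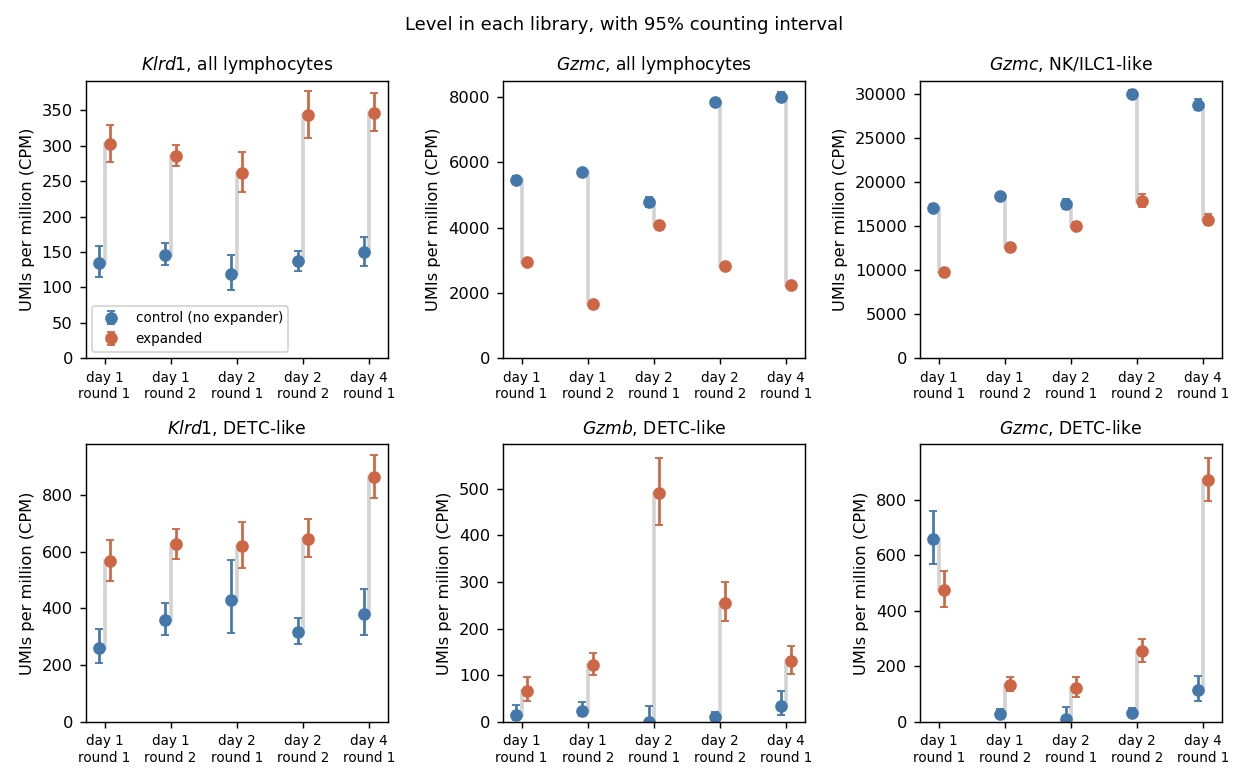
Levels by library, in CPM, of Klrd1 and Gzmc in all lymphocytes, Gzmc in NK/ILC1-like cells, and Klrd1, Gzmb and Gzmc in DETC-like cells; bars are 95% counting intervals, and a line joins the control and expanded library of 1 day and round. Gzmb in DETC-like cells was at most 33.8 CPM in control libraries and at least 66.8 in expanded ones.

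Gzmc in DETC-like cells was 658.6, 27.8, 9.32, 33.2 and 114.1 CPM in control libraries and 474.2, 133.3, 121.5, 254.9 and 871.3 in expanded ones. The control library of day 1 round 1 was high and the other 4 pairs were higher with expansion. The log2 difference was 1.24 ± 0.68 (adjusted p = 0.50, edgeR), and without that library 2.92 (adjusted p = 0.00379, edgeR). Over mice with at least 10 cells it was 3.76 (adjusted p = 0.0115, edgeR), with 1 expanded mouse of day 4 at 3915 CPM and 1 of day 2 round 2 at 1474, and the highest control mouse at 85.5. Nkg7 was lower in 5 of 5 pairs, from 1986 ± 475.8 to 1586 ± 345.9 CPM (-0.43 ± 0.13, adjusted p = 0.14), and passed with the pair as a block (-0.43, adjusted p = 0.047, edgeR). Xcl1 was 1257 ± 493.0 and 957 ± 357.8 (adjusted p = 0.199), Prf1 473 ± 113.1 and 404 ± 156.7 (adjusted p = 0.475), and Klrk1 635 ± 125.8 and 617 ± 89.4 (adjusted p = 0.823, edgeR). Klrc1 and Ifng were low, at 38.0 CPM or less and 55.2 CPM or less in every library, and neither passed (adjusted p = 0.532 and 0.942, edgeR).

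The DETC-like cells came from different clusters in the arms. Control cells were 58.0% from cluster 1 and 38.2% from cluster 3, and expanded cells 20.1% and 72.9%. Within cluster 3 alone, with at least 10 cells per library, Gzmb differed by 3.54 on the log2 scale (adjusted p = 0.0187) and Klrd1 by 0.98 (adjusted p = 0.025), Xcl1 passed at -1.12 (adjusted p = 0.0119), and Gzmc was at -0.05 (adjusted p = 0.997, edgeR). Median depth ran from 3002 to 3970 UMIs in control and 4188 to 5396 in expanded libraries, and with cells thinned to 2000 UMIs 2 members were again called. The fibroblast list summed to 562 to 2218 CPM in control and 54.5 to 380 in expanded DETC-like sums; of its 7 genes Pdgfra was at 0 in 4 control and 4 expanded libraries. The Treg list summed to 376 to 592 and 575 to 1312, with Foxp3 at 0 UMIs in control and 5 UMIs in all expanded libraries, and Ctla4 and Tnfrsf4 at 5.26 CPM or less; Il2ra ran from 4.74 to 27.9 CPM in control and 39.1 to 140 in expanded libraries, Ikzf2 from 85.5 to 185 and 174 to 267, and Tnfrsf9 from 118 to 336 and 166 to 898. In the mast or basophil list (27.8 to 50.7 and 33.6 to 152.5 CPM) Mcpt8 was at 0 in all 10 libraries and Cpa3 and Tpsb2 at 0 in the 5 expanded ones, while Kit was 9.32 to 37.9 in control and 32.4 to 142 in expanded libraries. The part of the fibroblast RNA and of depth in these differences was not tested beyond the thinned counts.

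**Figure D5:**
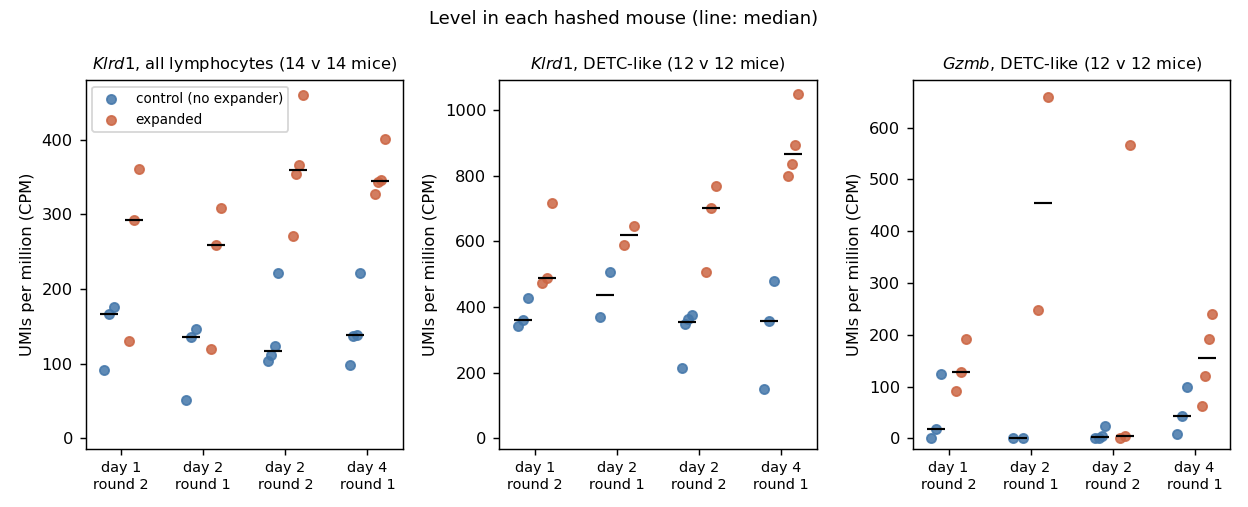
Levels by hashed mouse, in CPM, of Klrd1 in all lymphocytes and of Klrd1 and Gzmb in DETC-like cells (mice with at least 10 cells), by day and round, with a line at the median of each arm. The Klrd1 median of the expanded mice was above that of the control mice in each day and round, and 1 expanded mouse of day 2 round 2 was at 566 CPM of DETC-like Gzmb while the others of that tube with enough cells were at 4.87 and 0.

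In NK/ILC1-like cells, Gzmc was lower with expansion and was the only member called of the 10 that passed the filter, where 0.558% of 4841 genes were called. Control libraries had 17010, 18420, 17460, 29960 and 28780 CPM and expanded libraries 9764, 12610, 14990, 17900 and 15700. Each expanded library was below the control library of its pair, and the arms overlapped across days. The log2 difference was -0.75 ± 0.11 (SE; adjusted p = 0.00258, edgeR). The Eomes-led cluster, which had almost no Gzmc, was 6.28% of the control and 16.2% of the expanded NK/ILC1-like cells. Without that cluster, with at least 10 cells per library, the difference was -0.58 and did not pass (adjusted p = 0.0651), nor did it over 11 control and 6 expanded mice (-0.39, adjusted p = 0.586, edgeR; 1.13% of genes called). In the main cluster alone the day 2 round 1 pair was at 18310 in control and 23280 CPM in the expanded library, and the other 4 pairs were lower with expansion.

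Klrd1 in NK/ILC1-like cells was 215.5, 214.8, 199.6, 237.5 and 272.7 CPM in control libraries and 332.2, 439.7, 336.8, 252.2 and 509.0 in expanded ones. It was higher in 5 of 5 pairs, and the arms overlapped through the expanded library of day 2 round 2. The log2 difference of 0.60 ± 0.16 did not pass (adjusted p = 0.127, edgeR), but did with DESeq2 (adjusted p = 0.0432) and over mice (0.80, adjusted p = 0.0441, edgeR). Gzma was 0, 55.1, 114.8, 282.2 and 0 CPM in control and 0, 233.2, 916.8, 287.2 and 413.5 in expanded libraries, higher in 4 pairs and at 0 in both libraries of day 1 round 1, where no Eomes-led cell was found (1.98 ± 0.70, adjusted p = 0.264, edgeR). Xcl1 fell short at -0.53 ± 0.16 (4416 ± 734.2 and 3311 ± 862.0 CPM, adjusted p = 0.155) and passed with the pair as a block (-0.54, adjusted p = 0.0382, edgeR). Nkg7 was 1197 ± 189.0 and 986 ± 121.5 (adjusted p = 0.244), Prf1 225 ± 40.1 and 223 ± 97.7 (0.782), Klrk1 1052 ± 213.2 and 1054 ± 340.3 (0.811), Klrc1 150 ± 57.0 and 147 ± 40.8 (0.858), Ifng 136 ± 114.1 and 199 ± 286.4 (0.916) and Gzmb 95.7 ± 59.9 and 139 ± 98.6 (0.946, edgeR). In these sums the fibroblast list ran from 294 to 1521 CPM in control and 35.0 to 254 in expanded libraries, with up to 4 of its 7 genes at 0 in a library, and its part was not tested.

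In Treg-like cells only Gzmb passed the filter, in 4 libraries per arm; 0.229% of 4372 genes were called and Gzmb was not. Control libraries of day 1 round 2, day 2 rounds 1 and 2 and day 4 had 480.8, 754.7, 914.3 and 741.4 CPM, and the expanded libraries of the same pairs 764.6, 933.0, 1431 and 989.7. Gzmb was higher in 4 of 4 pairs with overlapping arms (0.46 ± 0.19, adjusted p = 0.451, edgeR). Over mice with at least 10 cells, the control median was 577 and the expanded median 817 CPM (0.42 ± 0.32, adjusted p = 0.683, edgeR; 0.648% of genes called). The other 9 members stood at 76.1 CPM or less in every library of the subset.

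IL-17-type and ILC2-like cells reached 5 libraries per arm with at least 10 cells, a limit chosen after seeing the data. The filter kept Klrk1, Nkg7, Gzmb and Gzmc in IL-17-type cells and Klrk1, Nkg7 and Gzmb in ILC2-like cells. No member was called in either by edgeR, where 0.552% of 3262 and 0.393% of 2802 genes were, and 0 were under an unadjusted p of 0.05. Klrk1 was 1026 ± 267.3 in control and 776.5 ± 322.3 CPM in expanded IL-17-type cells (-0.36 ± 0.23, adjusted p = 0.675), and 455.5 ± 259.3 and 608 ± 155.2 in ILC2-like cells (0.52 ± 0.27, adjusted p = 0.576, edgeR). Gzmb in IL-17-type cells was 117 ± 96.0 and 107 ± 74.1 (0.15 ± 0.42, adjusted p = 0.942).

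The Gzmb difference of DETC-like cells was set against that of the other subsets in fits with a term for the difference between subsets, added after seeing the data. It exceeded that in NK/ILC1-like cells by 3.21 ± 0.63 on the log2 scale (adjusted p = 0.0348, 10 libraries, 0.161% of genes called), but this did not pass without any one of 4 control libraries (those of days 1 and 2) or either expanded library of day 2, with an adjusted p of up to 0.179 and differences of 2.76 to 3.16 in those 6 of 10 fits. It exceeded that in Treg-like cells by 3.06 ± 0.46 (adjusted p = 0.000203, 8 libraries, 0.164% of genes called), and this was lost without the control library of day 2 round 2 (adjusted p = 0.0848, edgeR). The Gzmc difference also differed between DETC-like and Treg-like cells, by 3.39 ± 0.72 (adjusted p = 0.019, edgeR), and was lost without the control library of day 2 round 2 (2.92, adjusted p = 0.698) or of day 4 (3.51, adjusted p = 0.10), or without the expanded library of day 4 (2.36, adjusted p = 0.569, edgeR). Day 1 round 1, whose control library had DETC-like Gzmc at 658.6 CPM, had too few Treg-like cells to enter this comparison. Gzmc in Treg-like cells was at 33.5 CPM or less in every library, and under the filter when that subset was tested alone. For Klrd1 the DETC-like and NK/ILC1-like differences were 0.30 ± 0.21 apart (adjusted p = 0.918, edgeR).

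By day, in a fit with a mean for each arm and day, the Gzmb difference of DETC-like cells was 2.19 ± 0.52 on day 1 (adjusted p = 0.127), 5.46 ± 0.60 on day 2 (adjusted p = 0.000739) and 1.86 ± 0.72 on day 4 (adjusted p = 0.994, edgeR). The day 2 call was lost without the control library of day 2 round 2 (adjusted p = 0.345, edgeR), which left 1 control library of that day, at 0 UMIs of Gzmb, so its fitted size is not given. Over mice it was 5.13 and did not pass (adjusted p = 0.0817, edgeR). Day 1 passed without the expanded library of day 1 round 1 (2.53, adjusted p = 0.0214, edgeR). Day 2 called 0.0143% of 6989 genes, which was Gzmb alone; day 1 called 0.215% and day 4 called 0%. The day 2 difference exceeded that of day 1 by 3.27 ± 0.89, which did not pass (adjusted p = 0.742, edgeR). Day 4 had 1 library per arm, which is assumed to vary like the others. Over all lymphocytes Klrd1 differed by 0.91 ± 0.20, 1.12 ± 0.20 and 1.14 ± 0.28 on days 1, 2 and 4, and Gzmc by -1.42 ± 0.30, -0.96 ± 0.30 and -1.90 ± 0.43, and neither passed on a single day (adjusted p = 0.27 to 0.999, edgeR), where 0%, 0.0189% and 0% of genes were called. In NK/ILC1-like cells Gzmc differed by -0.81 ± 0.19, -0.64 ± 0.19 and -0.97 ± 0.27 (adjusted p = 0.131, 0.481 and 0.575, edgeR; 0.142%, 0.0355% and 0% of genes called).

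The share of lymphocytes with a UMI of a member, with cells thinned to 2000 UMIs, was compared over 5 and 5 libraries. Klrd1 was found in 22.99%, 20.9%, 21.1%, 22.3% and 19.8% of control and 39.5%, 32.4%, 34.2%, 34.5% and 33.9% of expanded lymphocytes. The arms were apart, and the exact two-sided permutation test gave an unadjusted p = 0.00794, the smallest that 252 arrangements allow. The share of all genes with arms apart by this measure is not given, so the gap cannot be set against it. It was 1 of 10 such tests, and 0 of 10 members passed after adjustment over them. A single member at this smallest p could not pass that adjustment, even with its arms fully apart. Without thinning, the shares were 31.8% ± 8.71 and 49.8% ± 8.25 (SD, n = 5 each). Gzmc was found in 21.7% ± 4.29 of control and 13.7% ± 6.90 of expanded lymphocytes (exact permutation p = 0.0635), and the p of the other 8 members ran from 0.119 to 0.976. Thinning left out 235 control and 75 expanded cells.

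The wider families were read against the 0.588% of all genes that were called over all lymphocytes. Among 25 granule and effector genes, 20 passed the filter over all lymphocytes, 0 were called higher and 1 lower: Csf2, the cytokine GM-CSF, at 82.8 ± 25.6 CPM in control and 29.5 ± 21.1 in expanded libraries (-1.69 ± 0.31, adjusted p = 0.0348, edgeR). By subset, Csf2 was highest in ILC2-like cells, at 240.9 ± 116.3 in control (n = 5) and 107.5 ± 105.1 CPM in expanded libraries (n = 3). It was 107.8 ± 25.3 and 99.4 ± 107.3 in NK/ILC1-like cells, and 7.77 ± 5.69 and 7.90 ± 1.74 in DETC-like cells. The granule and effector list had a median log2 difference of -0.06 against 0.01 for all genes tested. Of 32 NK receptors and adaptors, 26 passed the filter and 0 were called (median -0.03), and of 20 regulators of cytotoxic genes, 19 passed and 0 were called (median -0.14). Within DETC-like, NK/ILC1-like and Treg-like cells, none of these lists had a gene called by edgeR; the granule list had a median of 0.31 over 13 genes in DETC-like cells, against 0.01 for all genes tested. The Gzmc paralogs Gzmd, Gzme and Gzmf were at 75.0 CPM or less, and Gzmg at 0, in every DETC-like and NK/ILC1-like library.

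Partners of the members were read in 9 other classes of skin cells. Some classes joined several clusters, such as a C1qa-led and a Chil3-led cluster in the macrophage or monocyte-like class. Their sums also move with makeup, and its part in the differences below was not tested. Of the 4 ligands of NKG2D tested in macrophage or monocyte-like cells, 2 rose: Raet1e from 0.728 ± 0.906 to 12.3 ± 4.70 CPM (3.88 ± 0.63, adjusted p = 0.00242) and Raet1d from 0.184 ± 0.410 to 2.93 ± 3.84 (3.35 ± 0.73, adjusted p = 0.0141, edgeR), where 26.2% of genes were called. H60b there was 4.19 ± 4.43 and 9.39 ± 4.61 CPM (1.08, adjusted p = 0.193) and Ulbp1 4.69 ± 2.41 and 4.02 ± 0.862 (-0.42, adjusted p = 0.388, edgeR). H60c, the highest of the listed NKG2D ligands in keratinocyte-like cells, was 14.4 ± 4.79 and 10.9 ± 2.34 CPM there (adjusted p = 0.239, edgeR; 10.5% of genes called). Ulbp1 in these cells was 1.90 ± 1.34 and 1.71 ± 0.817 CPM (adjusted p = 0.609, edgeR). H2-T23, whose product is the class I molecule read by CD94, fell in fibroblast-like cells from 149 ± 57.3 to 71.8 ± 8.40 (-1.24 ± 0.19, adjusted p = 0.000721; 34.6% of genes called) and in mural cells from 44.0 ± 14.5 to 24.95 ± 7.07 (adjusted p = 0.0218, edgeR; 15.6% called). Fas, the receptor of Fas ligand, fell in fibroblast-like (-1.12), mural (-1.36) and Mgl2-led myeloid cells (-1.26; adjusted p = 0.00269, 0.00164 and 0.00702, edgeR; 16.3% of genes called in the last). Il18 fell in fibroblast-like cells (-1.34, adjusted p = 0.00202), Il15 fell in the Mgl2-led cells (-1.58, adjusted p = 0.0217), and Il15ra fell in endothelial cells (-0.78, adjusted p = 0.0396; 12.6% called) and rose in fibroblast-like cells (0.56, adjusted p = 0.0442, edgeR). Xcr1, the receptor of Xcl1, was 109 ± 19.95 and 88.0 ± 93.6 CPM in dendritic or Langerhans-like cells (adjusted p = 0.382, edgeR; 1.14% of genes called). In all, 11 of 67 tested pairs of gene and class passed. Over all genes, the share called ran from 0.355% in Schwann-like to 34.6% in fibroblast-like cells. The count of pairs was not set against these shares, so it is not read as a result about the partners. The pairs of Raet1e, Raet1d, Fas and Il18 and that of H2-T23 in fibroblast-like cells passed in each fit without 1 library that could be made. H2-T23 in mural cells, Il15 and Il15ra in both classes did not pass in 3 to 8 of 10 such fits, with an adjusted p of up to 0.127.

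Genes with the pattern most like each member were named over 49 sums of subset and library, by Pearson's correlation of log2(CPM + 1) among 7361 genes. These sums share libraries and depth, and the values are a description. Nearest to Klrd1 were Kir3dl2 (0.875), Il12rb2 (0.871) and Nkg7 (0.871); to Klrk1, Tcf7 (0.940), Atp8b4 and Parp8; to Klrc1, Klrc2 (0.917), Tbx21 and Gnptab; and to Nkg7, Tsc22d1 (0.906), Mfsd6 and Kir3dl1. For the granzymes they were Eomes (0.809), Ncr1 and Ccl4 with Gzma, Hbs1l (0.711), Cflar and Vmp1 with Gzmb, and Tyrobp (0.861), Ugcg and Ptger3 with Gzmc. Prf1 was nearest to Cd244a (0.924), Dapk2 and Nrgn, Xcl1 to Nrgn (0.937), Kir3dl1 and Ptger3, and Ifng to Ccl5 (0.779), Tbx21 and Itgb1. Between members, Klrd1 and Nkg7 were the closest pair and Klrk1 and Gzmb the most opposed (-0.521). By Spearman's correlation 13 of these 30 neighbours were named again.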

How the data were processed

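Each of the 10 mRNA libraries was deposited by the authors as a matrix of UMI counts per gene and barcode, not normalized; the 8 hashtag libraries were deposited as UMI counts per antibody tag. Per the submitters' processing notes, Cell Ranger 6.1.2 and build mm10 were used; how introns and multi-mapping reads were counted is not given in the sources used here.

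Barcodes needed 200 genes and 500 UMIs or more and no more than 10% mitochondrial UMIs, and doublets called by Scrublet or by hashtags (HTODemux, Seurat 5.3.0) were removed. Clustering used scanpy 1.11.5 (2000 variable genes, 30 components, 15 neighbours, Leiden resolution 1), lymphocytes again without the members. A mouse was assigned to 3480 of the 3498 lymphocytes of hashed libraries.

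Counts were summed per library and subset (at least 20 cells, at least 4 libraries per arm) and tested with edgeR 4.0.16 (quasi-likelihood, filterByExpr, TMM, day as covariate, Benjamini-Hochberg adjustment, threshold 0.05). CPM values are sums divided by total UMIs. Single values were tested by exact permutation over libraries (scipy 1.17.1). On simulated counts, 63% of genes changed 2-fold and 95% of those changed 4-fold were recovered in all lymphocytes, 52% and 94% in DETC-like, 52% and 87% in NK/ILC1-like and 43% and 90% in Treg-like cells. The labels number the sequencing rounds, which libraries of both arms share within a day, so they pair the libraries; deviations from the group means of paired libraries correlated at 0.326 on day 1 and 0.0729 on day 2.

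Members and lists were chosen with earlier results of these data known. Named genes are all members, genes of the fixed lists past the threshold and the 3 genes nearest to each member; H60c, Xcr1 and the Gzmc paralogs were added after their values were seen. Cells with no subset name entered the sums over all lymphocytes only.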

Additional observations from a re-analysis of the deposited data

Results flagged for a closer look

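The effect of expansion on Gzmb differed between subsets in fits with a term for that difference, by 3.2089 on the log2 scale between DETC-like and NK/ILC1-like cells (adjusted p = 0.0348) and by 3.0561 between DETC-like and Treg-like cells (adjusted p = 0.000203, edgeR). The effect on Gzmc differed between DETC-like and Treg-like cells by 3.3947 (adjusted p = 0.019, edgeR). Of all genes, 0.161% were called between DETC-like and NK/ILC1-like cells and 0.164% between DETC-like and Treg-like cells. Without 1 library, the Gzmb call against NK/ILC1-like cells was kept in 4 of 10 fits and that against Treg-like cells in 7 of 8. The Gzmc call was kept in 5 of 8, with the limits given above.

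Single libraries stood far from the other 4 of their arm in 10 of 60 groups of 5 that were looked at, spread over 7 libraries. The limit used is passed in about 1 of 20 groups of independent values with a normal spread. These groups share libraries and some hold values of 0, so the count cannot be read against that rate. Over all lymphocytes, Klrk1 was low in the controls of day 1 round 1 (469.9 CPM, the others 695 to 718) and high in the expanded library of day 1 round 2 (872.2, the others 554.5 to 603), which held most of the Cd8a-led cells. Gzma reached 222.3 CPM in the expanded library of day 2 round 1 (the others 0 to 41.0), and Prf1 222.8 in the controls of day 2 round 2 (the others 137 to 155). In DETC-like cells, Klrd1 was 862.6 in the expanded library of day 4, Gzmc 658.6 in that of the controls of day 1 round 1, and Ifng 33.79 in the control library of day 4 and 55.24 in the expanded library of day 1 round 1. In NK/ILC1-like cells, Nkg7 was 1528 in the controls of day 2 round 2 (the others 1083 to 1177), and Ifng 706.2 in the expanded library of day 4 (the others 37 to 140).

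Outside lymphocytes, some members exceeded every control library in 3 or 4 of the 5 expanded libraries. These were picked from 10 members in several classes. The share of all genes that did so in those classes is not given, so the counts cannot be set against it. In dendritic or Langerhans-like cells Klrd1 exceeded the controls (10.2 to 15.9 CPM) in 4 libraries, up to 64.55 (log2 difference 1.25, adjusted p = 0.176, edgeR). In the Mgl2-led myeloid cluster it was 13.0 to 18.6 in control libraries, 18.0 and 12.3 in expanded libraries of day 1, and 61.66, 61.6 and 47.3 in those of days 2 and 4 (0.95, adjusted p = 0.10, edgeR). Nkg7 reached 408.5 CPM in a library of the cluster led by Hdc, a histamine synthesis gene, where the 1 to 5 cells of each control library had 0 UMIs of Nkg7 and 3 counts would be 321.9 to 4219 CPM.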

How the results depend on the processing

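Across the 4 tested sets, 666 values of members were computed under an alternative: 612 kept direction and side of the threshold, 12 no longer passed, 18 newly passed and 24 changed sign, of which 0 passed. Klrd1 over all lymphocytes passed under every alternative run. Other scaling factors, clustering at resolution 2 and a minimum of 10 cells per library gave the same member calls. Members called over all lymphocytes went from 2 to 5 with no filter on low counts, to 1 with at most 5% mitochondrial UMIs and 1 without cells over 2 times the median UMIs, and ran from 1 to 3 without 1 library. For DETC-like cells they went from 2 to 1 over mice with at least 20 cells, and to 3 over mice with at least 10 cells (Gzmb, Klrd1 and Gzmc). They were 3 in cluster 3 alone (Gzmb, Klrd1 and Xcl1) and ran from 1 to 2 without 1 library. For Treg-like cells they went from 0 to 1 with no filter, and for NK/ILC1-like cells from 1 to 2 with DESeq2, 3 with no filter, 0 without the Eomes-led cluster and 2 without both libraries of day 1 round 1 (1 to 2 without 1 library). With the pair as a block, 2, 3, 0 and 2 members were called in all lymphocytes and in DETC-like, Treg-like and NK/ILC1-like cells, and it changed no other call of a member in these sets than those printed in the report. In other classes 14 partner pairs passed against 11 without it, the added ones being H2-T23 in endothelial (-0.83) and in macrophage or monocyte-like cells (-1.21) and Ifngr2 in the latter (0.49), and the member Gzmc also passed in Schwann-like cells (-3.25) and in Mgl2-led myeloid cells (-2.07). Genes called with the block were 158, 111, 10 and 64, against 58, 53, 10 and 27 without it.

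Over all lymphocytes, genes called were 326 over mice, 175 with DESeq2, 479 with no filter, 30 with at most 5% mitochondrial UMIs, 21 without the mouse of most Cd8a-led cells, 110 without unnamed clusters, and 14 to 77 without 1 library. For DETC-like cells they were 28 over mice with at least 20 cells, 88 over mice with at least 10 cells, 208 with no filter, 32 in cluster 3 alone and 17 to 64 without 1 library. For Treg-like cells they were 63 with no filter, 20 without cells of many UMIs and 7 to 20 without 1 library, and for NK/ILC1-like cells 50 with DESeq2, 128 with no filter, 7 with at most 5% mitochondrial UMIs and 17 without the Eomes-led cluster. By day, members called over all lymphocytes went from 0 to 1 over mice (Klrd1, day 2), and for DETC-like cells from 1 to 0 over mice and 0 to 2 without 1 library. Member shares past the threshold went from 0 to between 0 and 4 without 1 library, and Spearman's correlation shared 13 of 30 nearest genes.

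Signs that changed, none past the threshold, were as follows. Over all lymphocytes Prf1 was 0.14 over mice, 0.0671 without the mouse of most Cd8a-led cells and -0.3546 to 0.0946 without 1 library, and Ifng 0.19 after thinning and -0.48 to 0.21 without 1 library. In DETC-like cells Gzmc was -0.0474 in cluster 3 alone, and Ifng -0.0419 with the pair as a block and -0.21 to 2.13 without 1 library. In NK/ILC1-like cells, thinning gave Klrk1 0.0936, Prf1 0.0932 and Ifng 0.16, mice gave Klrc1 0.26 and Prf1 0.17, leaving out day 1 round 1 gave Klrc1 0.0267, and leaving out the Eomes-led cluster gave Gzmb -0.32. Without 1 library Gzmb there ran from -0.37 to 0.63 and Ifng from -1.22 to 0.40. The cause was not tested. Day 4 had 1 library per arm, and libraries with few cells of a subset limit what a call of no difference can show.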

Other observations

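Gzmb was also among the leading genes of a small cluster of non-lymphocytes, 108 cells led by Hdc, Gzmb and Mcpt8, genes known from basophils and mast cells; the cluster was left unnamed. In its expanded libraries, in the order day 1 round 1, day 1 round 2, day 2 round 1, day 2 round 2 and day 4, Gzmb was 0, 3108, 5345, 4686 and 1502 CPM, from 7, 19, 26, 21 and 18 cells. Control libraries held 1 to 5 cells each, with Gzmb at 3970 CPM in that of day 2 round 2 and at 0 in the other 4, where a count of 3 would correspond to 428.8 to 4219 CPM. The control values are therefore not informative at this depth, and no fold is given.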
